A study of Homo sapiens with 30 samples.

Results

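U87-MG, an established human glioblastoma line, was exposed to interferon-γ (IFN-γ) for 14 days and then grown without the cytokine for a further 14 days (D28WO), and its RNA was compared with that of cells that never received the cytokine (Untreated). The comparison rests on 6 libraries, 3 of D28WO and 3 of Untreated, chosen from the 30 samples of the series by their labels alone. All cultures were wild type, were kept in the same serum-containing medium and were sequenced from total RNA, and treated flasks received 1 µg/mL IFN-γ according to the labels. The labels place the Untreated collection at day 3 and the D28WO collection at day 28. The study's methods instead give a much lower dose and collect Untreated at the start of treatment. By either account, time in culture and the history of IFN-γ cannot be told apart. Replicates were described as separately grown cultures of 1 line whose identity was not tested by STR profiling. Levels are named TPM in the deposited table, that is, transcript abundance corrected for length and scaled to a fixed total per library, although a note of the study calls the matrices CPM, which would carry no correction for length. Of 61471 genes in the table, 22376 averaged 0.5 TPM or more across the 6 libraries and were tested.

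IFN-γ is the cytokine of activated T and natural killer cells. It binds a paired receptor whose kinases JAK1 and JAK2 signal to the nucleus, where IRF1 is switched on and, through it, antigen presentation, the immunoproteasome, guanylate-binding proteins and many antiviral genes. In glioma cells this response also brings chemokines that call in T cells and enzymes such as IDO1 that dampen them, and it slows growth. The question the washout addresses is which of these genes had gone back to the Untreated level after the cytokine was taken away.

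Most genes of the interferon lists stood above the Untreated level, and beyond them many other genes differed. In D28WO 3006 genes were higher than in Untreated (13.4% of those tested) and 497 were lower (2.22%), where a gene counts as risen or fallen if its adjusted p was under 0.05 (limma with Benjamini-Hochberg adjustment over all genes tested) and its difference exceeded 1 on the log2(TPM + 1) scale. Without the limit on size, 6701 genes were higher (29.9%) and 3101 lower (13.9%). The excess of rises depended on scaling. The median gene was 0.26 higher in D28WO on the log2(TPM + 1) scale as deposited, 0.08 higher after median-ratio size factors and at −0.03 after quantile normalization, and the share of calls that were rises was 85.8%, 72.1% and 51.1% in turn. Changes below are therefore read against a general shift of 0.26.

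Several properties of the libraries moved with the groups. Between 24223 and 25459 genes were above 0 in the Untreated libraries and between 27719 and 28649 in the D28WO libraries, and the 100 most abundant genes held 6.80 to 7.76% of all TPM in Untreated and 5.96 to 6.30% in D28WO. Summed TPM of 567 genes that these cells should not use (olfactory and taste receptors, hair keratin-associated proteins and defensins) was 35.9 to 54.4 in Untreated and 75.4 to 97.3 in D28WO. The 13 mitochondrially encoded genes held 0.646 to 0.699% of TPM in Untreated and 0.515 to 0.526% in D28WO. None of these ranges overlapped, and with 3 libraries against 3 the exact two-sided permutation p was 0.1, the smallest this design allows. Their part in the differences was not tested. Libraries correlated at 0.965 to 0.972 within Untreated, 0.965 to 0.966 within D28WO and 0.919 to 0.938 between the groups, across genes that are not independent replicates. CDKN2A, CDKN2B and MTAP, which U87 lacks, were at most 0.387 TPM in all 6 libraries save CDKN2A at 1.58 TPM in Untreated replicate 2. Of 12 leukocyte markers PTPRC and TYROBP were at or near 0. The 12 together summed to 53.4 to 61.4 TPM in Untreated, nearly all of it from CSF1R.

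The D14 and D28WO libraries went against what their labels would lead a reader to look for. Over 40 antiviral interferon-stimulated genes, the median difference from the Untreated mean was only 0.17 in both D14 libraries, which were collected under IFN-γ, while it was 1.59, 1.55 and 1.5 in the D28WO libraries, which had been without it for 14 days. In the 3 D28 libraries, under IFN-γ throughout, it was 1.60 to 1.66, and in the 2 D3 libraries 1.36 and 1.58. IRF1, a transcription factor switched on early by IFN-γ, was at 134 and 109.8 TPM in D14, at 539, 457 and 443 TPM in D28 and at 527, 545 and 457 TPM in D28WO, against 136, 130.1 and 134 TPM in Untreated. D28WO thus overlapped D28 in IRF1, lay just below it in the antiviral median and stood apart from Untreated and D14 in both. Whether the labels of D14 and D28WO were exchanged was not tested, and every statement below concerns the libraries as labelled.

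**Figure D1:**
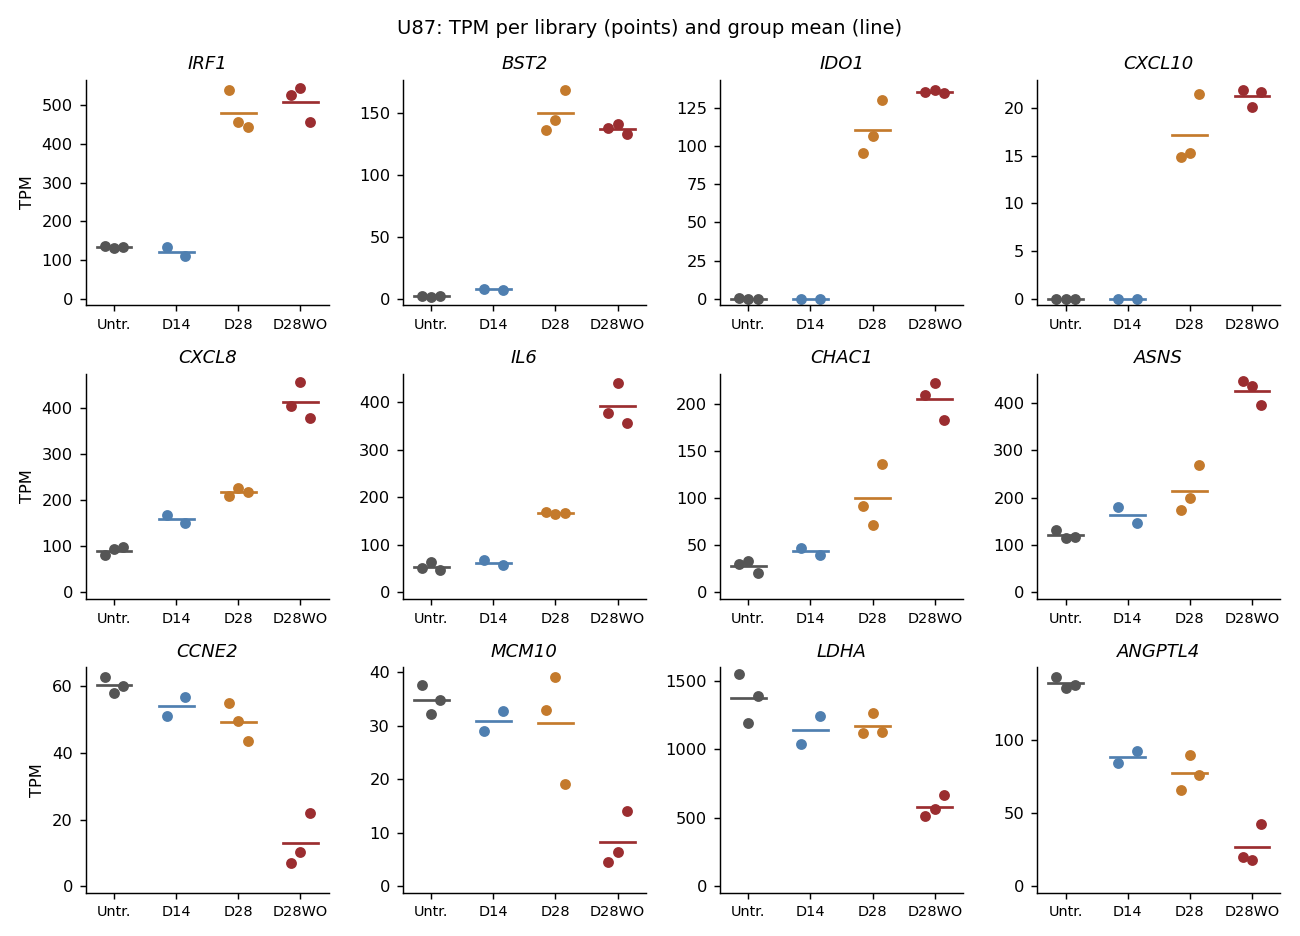
TPM of 12 genes in each U87 library (points) of Untreated, D14, D28 and D28WO with the group mean (line), on linear axes. IRF1, BST2, IDO1 and CXCL10 lie together in D28 and D28WO, whereas CXCL8, IL6, CHAC1 and ASNS are highest in D28WO, and CCNE2, MCM10, LDHA and ANGPTL4 lowest there.

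Some start regions of the genes that moved carry known binding sequences, and examples are shown here because the groups of genes described next differ in how often they hold them. RefSeq promoter windows of 300 bases around the start, on GRCh38.p14, were matched for 9592 of the tested genes and searched on both strands for a GAS element (TTCNNNGAA, the IFN-γ-activated site), an ISRE (GAAA, any 2 bases and GAAA again, the site of IRF and STAT complexes), NF-kB sites (GGG, any 2 bases and TTTCC, or GGAATTTCC, which overlap), an ATF4 site (TGATGNAA) and E2F sites (TTTCCCGC or TTTGGCGC). Capitals mark the match, all sequences read 5′ to 3′ on the strand of the gene, and a match describes letters and not binding. The windows stand at chr5:132490869-132490917 (IRF1, minus strand), chr1:89065306-89065355 (GBP1, minus), chr19:17405725-17405774 (BST2, minus) and chr4:76023645-76023738 (CXCL10, minus), all upstream of the start.
IRF1, GAS: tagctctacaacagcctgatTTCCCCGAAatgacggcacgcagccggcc
GBP1, ISRE: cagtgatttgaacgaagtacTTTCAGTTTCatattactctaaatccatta
BST2, ISRE: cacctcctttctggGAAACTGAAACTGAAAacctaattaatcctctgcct
CXCL10, ISRE and NF-kB: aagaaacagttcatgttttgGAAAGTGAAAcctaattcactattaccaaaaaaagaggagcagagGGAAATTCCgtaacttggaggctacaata

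The neutrophil chemokines carried a different letter pattern. Their windows stand at chr4:73869295-73869343 (CXCL1, plus), chr4:74099244-74099292 (CXCL2, minus), chr4:74038739-74038787 (CXCL3, minus), chr4:73740458-73740506 (CXCL8, plus) and chr2:227813743-227813792 (CCL20, plus), and the first 3 are nearly the same sequence.
CXCL1, NF-kB: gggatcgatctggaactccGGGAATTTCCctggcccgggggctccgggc
CXCL2, NF-kB: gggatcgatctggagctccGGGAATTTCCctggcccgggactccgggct
CXCL3, NF-kB: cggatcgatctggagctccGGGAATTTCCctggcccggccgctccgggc
CXCL8, NF-kB: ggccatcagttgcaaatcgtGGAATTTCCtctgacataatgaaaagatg
CCL20, NF-kB: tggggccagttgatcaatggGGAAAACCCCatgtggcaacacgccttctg

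Stress and replication genes are represented by CHAC1 at chr15:40953242-40953289 (plus), CDT1 at chr16:88803734-88803781 (plus) and GINS2 at chr16:85688958-85689005 (minus).
CHAC1, ATF4: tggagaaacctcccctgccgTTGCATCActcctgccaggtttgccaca
CDT1, E2F: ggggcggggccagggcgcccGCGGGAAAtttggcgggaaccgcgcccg
GINS2, E2F: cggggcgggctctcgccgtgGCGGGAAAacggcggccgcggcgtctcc

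An ISRE was found in 18 of 23 matched antiviral genes (78.3%) and in 3 of 3 guanylate-binding proteins, against 3.11% of all matched promoters. An NF-kB match was found in 6 of 8 neutrophil and monocyte chemokines (75%), against 2.45% of all, and none of those 8 held an ISRE. For the T-cell chemokines, 2 of 3 matched members held an ISRE and 2 of 3 an NF-kB match. An E2F match was found in 8 of 13 replication licensing genes (61.5%), against 3.48% of all. An E2F match was also found in 4 of 10 E2F and cyclin genes and in 6 of 19 DNA synthesis genes. An NF-kB match was found in 5 of 9 genes of the NF-kB list and in 1 of 6 cytokines. The ATF4 letters were found in 2 of 10 matched stress genes (20%), CHAC1 and FGF21, against 1.93% of all. An ISRE was found in 4 of 7 matched class I genes and in 0 of 5 receptor and JAK-STAT genes, and a GAS element in 0 and 2 of them, against 6.83% of all. A GAS element was also found in 7 of 23 antiviral genes (30.4%) and in 1 of 3 guanylate-binding proteins.

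The signal transducers of IFN-γ were raised after washout against Untreated. Of 11 tested members of the receptor and JAK-STAT list, 6 rose, JAK2, STAT2 and IRF1 among them, and none fell, with a list median of 1.33. In the D14 libraries, collected when the cytokine was removed, the median difference from the Untreated mean was 0.19 and 0.07. STAT2, a part of the type I interferon complex, was at 41.4, 45.3 and 39.3 TPM in Untreated and at 131, 131 and 128 TPM in D28WO, a difference of 1.61 ± 0.07 (SE, log2 scale, limma adjusted p = 4.06e-08). JAK2, a kinase bound to the receptor, was at 16.3, 22.8 and 14.7 TPM in Untreated and at 59.6, 50.8 and 55.7 TPM in D28WO. In neither gene did the groups overlap. The receptor chains themselves did not pass the limits: IFNGR1 was 0.77 and IFNGR2 −0.07 on the log2 scale.

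The inhibitors of the pathway behaved otherwise. None of 7 tested feedback regulators rose or fell, and their median was 0.07, which turned to −0.07 after quantile normalization and −0.15 after median-ratio size factors. SOCS1, which blocks JAK activity, was at 19.75, 15.002 and 14.97 TPM in Untreated and at 32.7, 26.7 and 36.3 TPM in D28WO, so that the groups did not overlap, yet its log2 difference of 0.91 stayed under the limit (limma adjusted p = 0.000427). USP18, which shuts down the type I interferon receptor, was at 28.0, 37.8 and 28.8 TPM in Untreated and at 32.5, 31.5 and 33.2 TPM in D28WO and did not differ beyond that spread (0.05, limma adjusted p = 0.747).

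Antigen presentation was raised in both classes against Untreated. Of 16 class I genes 5 rose, namely HLA-F, B2M, TAP1, TAPBPL and NLRC5, and of 15 class II genes 8 rose and none fell, with medians of 0.91 and 1.03. In D14 the same medians were −0.09 and 0.01 for class I and 0.12 and −0.04 for class II. B2M, the light chain of every class I molecule, was at 1037, 876 and 930.4 TPM in Untreated and at 3344, 3169 and 2891 TPM in D28WO. CIITA, the master activator of class II genes, went from 50.8, 47.1 and 32.9 TPM to 192, 191 and 192 TPM, a difference of 2.14 ± 0.12 (SE, log2 scale, limma adjusted p = 2.14e-07). Neither gene's groups overlapped. HLA-DOB, which restrains peptide loading, was listed at 0, 1.36 and 0 TPM in Untreated and reached 22.8, 22.3 and 22.1 TPM in D28WO, and HLA-DQA1 was 2.87 higher.

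Within class I, 3 general chaperones that assist peptide loading in the endoplasmic reticulum were lower by adjusted p alone: CALR was −0.86, PDIA3 −0.34 and CANX −0.28 on the log2 scale. Reads of HLA genes can be shared between near-identical copies, so single HLA values are uncertain. The class I count was 9 after quantile normalization.

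The proteasome showed the same division between induced and housekeeping parts. All 5 genes of the immunoproteasome and its activator were higher by adjusted p alone and PSMB9 and PSMB10, which trim peptides for class I, passed the size limit (1.30 and 1.29). None of 14 constitutive subunits passed it, and 9 were lower and 2 higher by adjusted p alone. Their median was −0.40, or −0.18 after quantile normalization and −0.63 after median-ratio size factors.

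Guanylate-binding proteins, large GTPases that attack intracellular pathogens, were the most raised of the interferon lists. All 5 tested rose and their median was 3.01. GBP1 was at 36.9, 39.6 and 31.3 TPM in Untreated and at 213, 219 and 232 TPM in D28WO (2.59 ± 0.09, SE, log2 scale, limma adjusted p = 6.25e-09). GBP5 was at 1.85, 1.98 and 0.441 TPM in Untreated and at 82.3, 81.8 and 72.6 TPM in D28WO, without overlap. GBP6 and GBP7 were under the limit of 0.5 TPM and were not tested.

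Of 40 antiviral interferon-stimulated genes 25 rose, none fell and the median was 1.53. BST2, tetherin, which holds budding virus at the cell surface, was at 1.90, 1.70 and 2.35 TPM in Untreated and at 138, 141 and 133 TPM in D28WO, 69.3 times the Untreated mean (5.54 ± 0.11, SE, log2 scale, limma adjusted p = 4.81e-11). It lies at chromosome 19, 17402939 to 17405630 on GRCh38, beside the long non-coding RNA BISPR on the other strand, which starts at 17405686 and was at 1.28, 0.459 and 1.95 TPM in Untreated and at 52.7, 66.0 and 53.7 TPM in D28WO. The printed BST2 window with its ISRE letters lies within BISPR. Whether the counting used strand was not stated, but the gene bodies as annotated do not overlap.

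Other antiviral genes differed in size of change. IFI27, IFITM1 and XAF1 were 5.27, 3.80 and 4.48 higher, whereas ISG15 at 0.99, PLSCR1 at 0.95 and TRIM22 at 0.82 stayed under the limit of size although each passed the adjusted p. IFI44 was the 1 member below Untreated by adjusted p alone (−0.26, limma adjusted p = 0.0203). OAS1, a sensor that makes the second messenger for RNase L, was at 7.42, 12.99 and 7.82 TPM in Untreated and at 17.3, 15.1 and 21.2 TPM in D28WO, and did not pass the size limit. OAS, IFIT and IFITM genes are families whose reads may be shared.

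**Figure D2:**
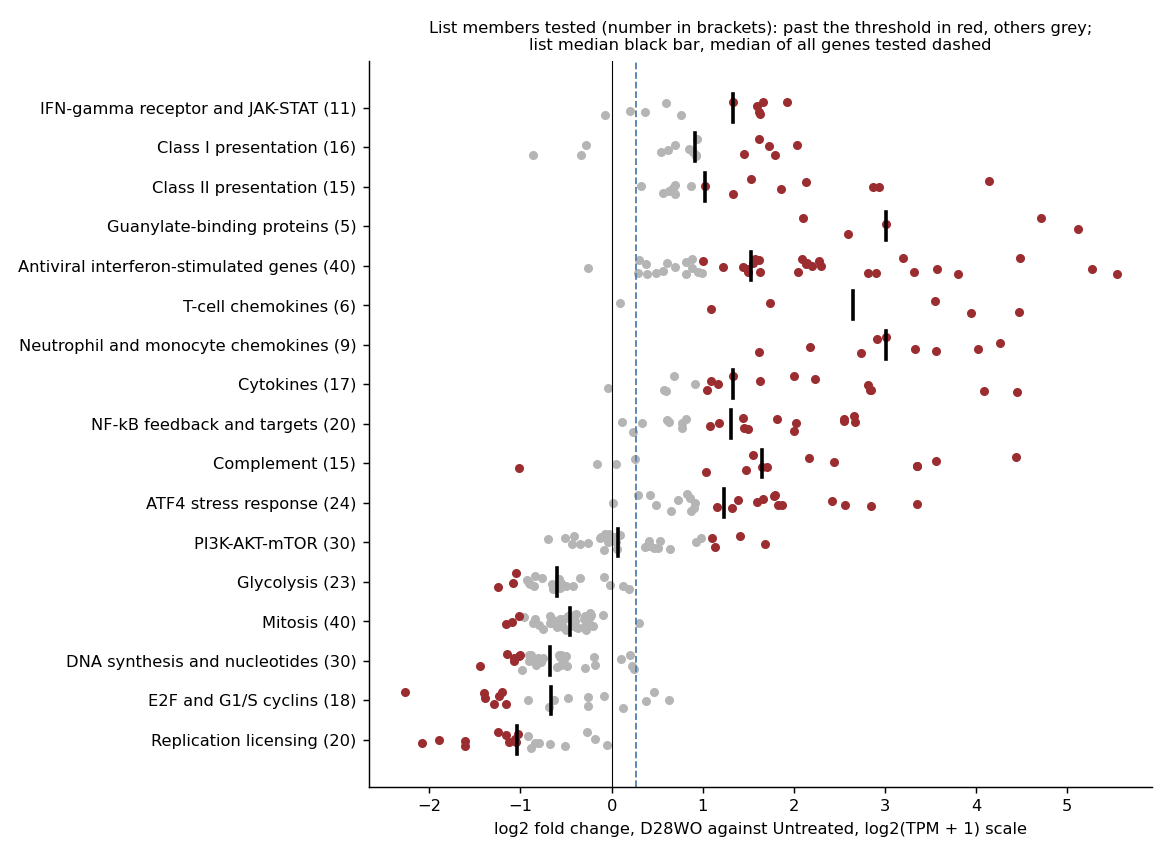
Log2 fold change of D28WO against Untreated for each tested member of 17 gene lists, on the log2(TPM + 1) scale: members past the threshold in red, others in grey, list medians as black bars and the median of all genes, 0.26, dashed. Medians of the interferon, chemokine and cytokine lists lie to the right of the dashed line and those of the replication lists to the left. No replication licensing gene lies above 0.

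T-cell chemokines were listed at 0 in Untreated and measured after washout. CXCL9, CXCL10 and CXCL11, which draw T cells through CXCR3, were each listed at 0 in all 3 Untreated libraries and in both D14 libraries. In D28WO CXCL10 was at 21.9, 20.1 and 21.7 TPM, CXCL11 at 12.9, 12.7 and 7.44 TPM and CXCL9 at 0.805, 1.40 and 1.23 TPM, so CXCL9 stayed close to the limit for testing. CCL5, another attractant of T cells, was also listed at 0 in Untreated and was at 16.3, 11.1 and 16.5 TPM in D28WO. No fold change is given for a gene against a group listed at 0, though such genes count in the medians of their lists. Of the 6 members 5 rose and CCL4 did not (0.09, limma adjusted p = 0.908).

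Chemokines for neutrophils and monocytes rose as a whole: all 9 tested, with a median of 3.01, and only CXCL6 was too low to test. CXCL8, the main neutrophil attractant, was at 80.3, 94.1 and 97.7 TPM in Untreated and at 404.5, 456 and 378 TPM in D28WO (2.17 ± 0.10, SE, log2 scale, limma adjusted p = 4.68e-08). CXCL2 was at 32.5, 47.6 and 42.4 TPM in Untreated and at 311, 372 and 317 TPM in D28WO. CCL20, which attracts CCR6-bearing lymphocytes and dendritic cells, was at 7.12, 3.82 and 3.17 TPM in Untreated and at 45.2, 66.3 and 51.6 TPM in D28WO. No D28WO library overlapped an Untreated one in these 3 genes. CCL7 and CCL8, monocyte attractants, were listed at 0 in every Untreated library and were at 19.4, 17.9 and 17.5 TPM and at 17.5, 13.8 and 14.7 TPM in D28WO. CXCL1, CXCL2 and CXCL3 are near-identical copies, so reads may have been split among them.

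Of 17 cytokines 12 rose and none fell (median 1.34). IL6, an acute-phase cytokine that gliomas secrete, was at 50.7, 63.0 and 47.8 TPM in Untreated and at 377, 441 and 356 TPM in D28WO, 7.26 times the Untreated mean (2.84 ± 0.11, SE, log2 scale, limma adjusted p = 1.55e-08). IL1A, an alarmin, was at 14.4, 13.4 and 13.1 TPM in Untreated and at 106, 113 and 91.5 TPM in D28WO. IL32 was 4.45 higher, CSF2 and CSF3, which drive myeloid growth, 2.81 and 2.00, and IL18BP, the secreted trap for IL-18, 4.09. Neither IL6 nor IL1A overlapped between the groups. IL18 itself was −0.03, IL33 0.58 and TNF 0.68 on the log2 scale, and none of these passed both limits.

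NF-kB is the transcription factor that cytokine receptors and stress release from its inhibitors. Of 20 of its subunits, inhibitors and targets 12 rose and none fell, with a median of 1.31. Those that rose include the non-canonical subunits NFKB2 (1.08) and RELB (1.45), the co-activator NFKBIZ (2.55), the brake TNFAIP3 (2.00) and the adhesion molecules ICAM1 (2.02) and VCAM1 (2.67). NFKBIZ was at 28.0, 39.9 and 40.5 TPM in Untreated and at 206, 228 and 209.5 TPM in D28WO, without overlap. RELA, the main transactivating subunit, was 0.11 and NFKBIA, its inhibitor, 0.60.

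Complement, the plasma defence cascade, rose in 11 of 15 members and fell in 1, with a median of 1.65. C3, its central component, was at 106, 81.3 and 69.0 TPM in Untreated and at 482, 460.3 and 440.2 TPM in D28WO. C2 and CFB, which build the convertases of the classical and alternative routes, were 4.44 and 3.35 higher and SERPING1, the C1 inhibitor, 3.35. Among the membrane guards CD55 rose from 52.1, 49.4 and 43.6 TPM to 139.8, 142 and 126 TPM whereas CD59 fell from 364, 370.2 and 460.1 TPM to 179, 206 and 202 TPM (−1.02, limma adjusted p = 1.01e-05). CD46 was −0.16. The CD59 difference lay close to the limit and its call was lost without Untreated replicate 3 or without D28WO replicate 1. C4A and C4B are copies that can share reads.

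Genes that restrain T cells were raised unevenly, with 5 of 11 checkpoint ligands and 3 of 12 tryptophan genes risen and none fallen, where 13.4% of all genes rose. The list medians lay 0.74 and 0.10 above that of all genes. After median-ratio size factors 4 checkpoint ligands rose and 1 fell, and 2 tryptophan genes rose. IDO1, which degrades tryptophan, was the largest rise of all by the naming rule. It was at 0.239, 0 and 0 TPM in Untreated and at 135, 137 and 135 TPM in D28WO (6.99 ± 0.14, SE, log2 scale, limma adjusted p = 4.81e-11), and was listed at 0 in both D14 libraries. WARS1, the tryptophanyl-tRNA synthetase that interferon is known to raise, was at 229, 209 and 209.6 TPM in Untreated and at 1293, 1271 and 1133 TPM in D28WO, and KYNU, an enzyme further down the kynurenine route, was 1.05 higher. CD274, which encodes PD-L1, was at 28.7, 46.9 and 28.1 TPM in Untreated and at 66.2, 68.9 and 69.4 TPM in D28WO. The groups did not overlap, but the log2 difference of 0.999 fell just short of the limit (limma adjusted p = 0.000425). PDCD1LG2, its relative PD-L2, passed at 1.17 but had no call after either rescaling (0.87 after quantile normalization and 0.945 after median-ratio size factors). Other ligands that passed were TNFRSF14 at 2.56, LGALS9 at 2.45 and HLA-G at 1.52, while CD276 was −0.78 and CD47 0.13.

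Among 19 cell death genes 4 rose, namely the inflammatory caspases CASP1 and CASP4, CASP10 and the pore former GSDMD, and none fell. Of all genes tested 13.4% rose, and the list median of 0.43 lay 0.16 above that of all genes. After median-ratio size factors 1 member rose. CASP1 was at 22.3, 17.2 and 15.9 TPM in Untreated and at 75.0, 76.1 and 73.8 TPM in D28WO. The survival genes BCL2L1 and MCL1 were −0.06 and −0.02.

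The genes that start DNA replication fell. Cells license origins by loading the MCM helicase with ORC1, CDC6 and CDT1 and then fire them with CDC45 and the GINS complex. Of 20 such genes 11 fell and none rose, with a median of −1.04 (−1.02 after quantile normalization and −1.26 after median-ratio size factors). ORC1 was at 29.9, 32.9 and 25.4 TPM in Untreated and at 5.74, 5.995 and 10.3 TPM in D28WO (−1.90 ± 0.22, SE, log2 scale, limma adjusted p = 3.63e-05). MCM10 was at 37.7, 32.2 and 34.8 TPM in Untreated and at 4.51, 6.41 and 14.0 TPM in D28WO, and GINS2 at 70.2, 75.5 and 66.7 TPM and at 18.2, 21.1 and 29.4 TPM. None of these overlapped between the groups.

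D28WO replicate 3 lay nearest to Untreated in each of these genes. Its licensing median was −0.77, against −1.22 and −1.08 in replicates 1 and 2, and the 3 Untreated libraries lay between −0.07 and 0.08. With 1 library left out at a time, 7 to 11 licensing genes fell, the 7 without D28WO replicate 1. The MCM2 to MCM5 genes fell by 1.03 to 1.07, so their calls were close to the limit, and MCM6 and MCM7 stayed inside it at −0.88 and −0.92.

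The switch into S phase moved with licensing. Of 18 E2F and G1/S cyclin genes 7 fell (E2F1, E2F2, E2F8, CCND3, CCNE2, CDC25A and SKP2) and none rose, with a median of −0.66. E2F2 lost its call in the fit of the compared groups alone, without Untreated replicate 2 and without D28WO replicate 1. CCNE2, a cyclin that drives entry into S phase, was at 62.8, 58.0 and 60.1 TPM in Untreated and at 6.85, 10.4 and 21.9 TPM in D28WO, so that the Untreated mean was 4.62 times that of D28WO (−2.27 ± 0.29, SE, log2 scale, limma adjusted p = 8.84e-05). E2F1 was at 93.1, 93.3 and 92.3 TPM in Untreated and at 31.6, 37.7 and 49.3 TPM in D28WO. CCND1 was −0.25 and CCNE1 −0.26, and neither passed.

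Enzymes of DNA synthesis and nucleotide supply fell in 6 of 30 members (RFC2, FEN1, LIG1, RRM1, RRM2 and TYMS), with a median of −0.67. FEN1, which trims Okazaki fragments, was at 149.9, 148 and 165 TPM in Untreated and at 48.5, 52.0 and 69.9 TPM in D28WO. This count rested on single libraries and on scaling, since it was 2 without D28WO replicate 1, 9 without D28WO replicate 3 and 14 after median-ratio size factors. CAD, GART and ATIC, which build purines and pyrimidines anew, did not pass the limits, at 0.20, 0.22 and 0.10, each below the general shift of 0.26.

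Mitotic genes were lower by less. Of 40, only CDC20, SPC24 and NCAPH passed both limits, but 36 were lower and none higher by adjusted p alone, with a median of −0.46. MKI67, the usual proliferation marker, was at 70.2, 78.1 and 75.7 TPM in Untreated and at 55.5, 58.8 and 79.0 TPM in D28WO and its groups overlapped (−0.23, limma adjusted p = 0.165). Among 22 homologous recombination and Fanconi genes EXO1, FANCB and CLSPN fell, a count that was 8 after quantile normalization and 5 after median-ratio size factors. The mitotic count was 7 after median-ratio size factors and 1 without D28WO replicate 1. In bulk RNA, fewer cells in a cell cycle phase and less RNA per cell cannot be told apart.

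The usual brakes on the cycle were not raised in step. CDKN1A, which encodes p21, was 0.07 and CDKN1B 0.27, and of 23 CDK inhibitors and DNA damage targets 4 rose (among them SESN2 at 1.82 and PLK3 at 1.11) and 1 fell, where 13.4% of all genes rose, and the list median lay 0.15 above that of all genes. The 4 were 2 after quantile normalization and 1 after median-ratio size factors. Of 19 genes often counted as secretory senescence markers 7 rose and LMNB1 fell (−1.05). By adjusted p alone 8 were higher and 9 lower, and the list median was −0.28, below that of all genes. LMNB1 lost its call without D28WO replicate 2 or without Untreated replicate 3. The 7 that rose were IL1A, IL1B, IL6, CXCL8, CCL2, MMP1 and GDF15, most of which are members of the cytokine and chemokine lists above and of which MMP1 had no call after either rescaling, while IGFBP3 was −0.49.

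**Figure D3:**
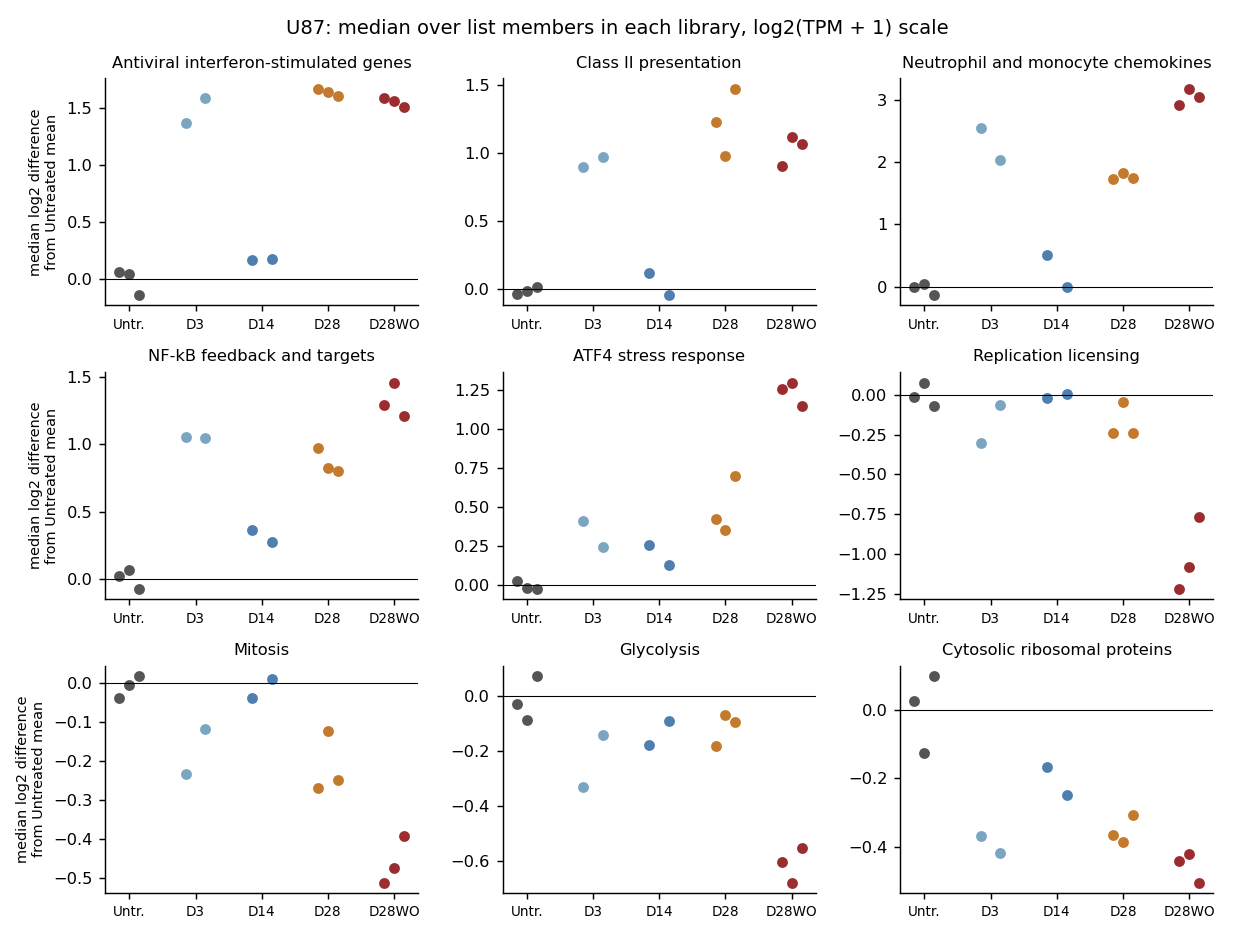
Median over the members of 9 gene lists in each U87 library (points), as the log2(TPM + 1) difference from the Untreated mean. Antiviral and class II genes are near 0 in D14 and raised in D3, D28 and D28WO, whereas the ATF4, replication licensing and glycolysis medians are farthest from 0 in the 3 D28WO libraries.

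Glycolysis, the breakdown of glucose to pyruvate and lactate on which U87 leans, was lower at nearly every step. Of 23 genes only SLC2A1, PFKFB4 and LDHA passed both limits, but 19 were lower and 1 higher by adjusted p alone, with a median of −0.60 (−0.39 after quantile normalization). LDHA, which makes lactate, was at 1545, 1192 and 1386 TPM in Untreated and at 514, 563 and 665 TPM in D28WO (−1.24 ± 0.13, SE, log2 scale, limma adjusted p = 1.77e-05). SLC2A1, the glucose transporter GLUT1, was at 199, 197 and 224 TPM in Untreated and at 92.7, 93.6 and 114 TPM in D28WO. Neither overlapped. HK2 was 0.19 and SLC16A1 −0.02, and the count of fallen genes was 8 after median-ratio size factors and 1 without D28WO replicate 2.

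Of 22 hypoxia-response genes ANGPTL4 alone fell, from 143.5, 136 and 138 TPM to 19.95, 17.9 and 42.3 TPM (−2.44, limma adjusted p = 4.07e-05). By adjusted p alone 14 were lower and 2 higher, with a median of −0.37. VEGFA was −0.18 and HIF1A −0.13. Of 23 tested genes of cholesterol synthesis 2 fell, among them the sterol isomerase EBP (−1.56), and SQLE was −0.13.

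The ATF4 response moved the other way. ATF4 is the factor that a cell makes more of when amino acids run short or protein folding fails, and its targets import and make amino acids. Of 24 genes 13 rose and none fell, 23 were higher by adjusted p alone, and the median was 1.23. CHAC1, which degrades glutathione, was at 30.04, 33.6 and 20.7 TPM in Untreated and at 209.7, 222 and 183 TPM in D28WO (2.84 ± 0.22, SE, log2 scale, limma adjusted p = 2.53e-06). ASNS, asparagine synthetase, was at 132, 116 and 118 TPM in Untreated and at 445, 436 and 395 TPM in D28WO. TRIB3 was 2.56, ATF3 2.41, SLC7A11, the cystine importer, 1.87 and DDIT3, the factor CHOP, 1.60 higher. No library of one group reached the other in CHAC1 or ASNS.

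FGF21, a stress hormone, was listed at 0 in all 3 Untreated libraries and was at 12.7, 8.83 and 6.82 TPM in D28WO. The ATF4 transcript itself was 0.28 higher and under the limit. Chaperones of the endoplasmic reticulum, the other arm of protein-folding stress, showed no common direction: of 16 DNAJB9 rose (1.19, with no call after either rescaling), SDF2L1 fell (−1.03, with no call without Untreated replicate 1 or D28WO replicate 1) and HSPA5 was 0.41, and the median of 0.03 turned to −0.20 after median-ratio size factors.

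Genes for ribosomes and respiration shifted little and together. None of 80 cytosolic ribosomal protein genes and none of 72 nuclear respiratory chain genes passed the size limit, but 73 and 61 were lower by adjusted p alone and none was higher, with medians of −0.45 and −0.44. After quantile normalization these medians were −0.16 and −0.30, and 32 and 46 were lower by adjusted p alone, with 1 ribosomal protein gene higher. Of 12 mitochondrially encoded genes none passed the size limit, 5 were lower by adjusted p alone and the median was −0.39. After quantile normalization 0 were lower and the median was −0.07. Median-ratio size factors moved all of these lists the other way. The ribosomal, respiratory and mitochondrially encoded medians were then −0.68, −0.67 and −0.61, with 76, 70 and 11 genes lower by adjusted p alone. Of the respiratory genes 3 then fell past the size limit. Of 16 iron and ferroptosis genes 3 rose (FTH1, SLC7A11 and SLC40A1), not far from the 13.4% of all genes, and 1 rose after quantile normalization. FTH1, the iron-storing ferritin heavy chain, went from 1395, 1019 and 1054 TPM to 2939, 2698 and 2540 TPM, whereas FTL, the light chain, was 0.05 on the log2 scale. The FTH1 difference of 1.25 was 0.84 after quantile normalization, under the limit. SLC40A1, the iron exporter, rested on 1 library, at 7.70 TPM against 0.693 and 1.22 TPM in the other D28WO libraries, and without it the gene was too low to be tested.

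For the PI3K-AKT-mTOR route, which the study follows as a survival pathway, transcripts gave no common direction. Of 30 genes PIK3CD, IRS2, IGF1R and INSR rose and none fell, a share of rises near the 13.4% of all genes, and the median of 0.07 lay below the median of all genes and turned to −0.15 after median-ratio size factors. IRS2, an adaptor of the insulin receptor, was at 11.3, 12.4 and 8.77 TPM in Untreated and at 24.5, 25.1 and 24.7 TPM in D28WO, and INSR was 1.68 higher. PIK3CD was at 45.5, 37.3 and 38.5 TPM in Untreated and at 82.7, 108.8 and 74.1 TPM in D28WO. AKT1 was −0.09 and MTOR 0.39. Under quantile normalization 1 member rose and 2 fell. Transcript levels do not measure AKT phosphorylation.

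Matrix and identity genes changed singly. Of 17 collagens COL1A1 (−1.12, or −0.93 and no call after quantile normalization) and COL13A1 (−1.68) fell and COL11A1 rose (1.85), and ADAMTS5, a proteoglycan-cutting protease, rose from 9.19, 11.2 and 8.11 TPM to 57.2, 54.2 and 51.4 TPM. In the mesenchymal list of 26 only TWIST2 rose (1.42, or 0.85 and no call after quantile normalization), while VIM and CD44 were −0.35 and −0.40. In the neural and glial list, in which 16 of 22 members could be tested, GFAP (1.45), OLIG2 (1.78), HEY1 and MAP2 rose and TUBB3 (−1.47) and FABP7 fell, FABP7 at a mean of only 4.82 TPM in Untreated. After quantile normalization GFAP, HEY1 and MAP2 lost their calls, and 1 member of the list rose and 4 fell. FABP7 lost its call in 4 of the 6 fits that left out 1 library. Other lists changed in few members. Of 24 lysosome and autophagy genes 3 rose, a share near the 13.4% of all genes. This count was 1 when Untreated replicate 3 was left out and 0 after median-ratio size factors. Of 23 replication-dependent histones 4 rose (2 rose and 3 fell after quantile normalization), not far from the 13.4% of all genes. Their median lay 0.05 below that of all genes. Of 24 TGF-β genes 1 rose and 1 fell, with 3 fallen after quantile normalization and 5 after median-ratio size factors, and none of 13 fatty acid synthesis genes passed. GFAP, the astrocyte filament, reached a mean of only 14.2 TPM in D28WO.

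Markers of other cell types gave a mixed picture. The summed TPM of 12 leukocyte markers was 53.4 to 61.4 in Untreated and 12.96 to 25.1 in D28WO, nearly all of it from CSF1R, which fell by 1.69. AIF1 and TYROBP were listed at 0 in all 6 libraries. Neuronal markers summed to 100.1 to 104 TPM in Untreated and 69.7 to 79.7 TPM in D28WO, led by SNAP25, and epithelial markers to 7.79 to 12.6 and 12.9 to 16.2 TPM. Endothelial markers summed to 7.42 to 9.91 TPM in Untreated and 2.89 to 6.09 TPM in D28WO, and 1 of the 5 tested fell, or 3 after quantile normalization. Their part in the results was not tested.

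Among the remaining large changes chosen by size (groups that did not overlap and a higher mean of 5 TPM or above, which 2040 risen and 373 fallen genes met), the rises were led by IDO1 and by LGALS17A, whose D28WO libraries held 113, 88.1 and 97.8 TPM and whose Untreated libraries were listed at 0. KLHDC7B went from 0.810, 1.02 and 0.436 TPM to 127, 126 and 109 TPM. CLDN1, a tight-junction claudin, was at 0.347, 0.677 and 0.400 TPM in Untreated and at 48.3, 43.1 and 33.2 TPM in D28WO. SAA1, an acute-phase protein, GJD3, a connexin, and SPRR2A, a cornified-envelope protein, reached means of 39.6, 36.0 and 27.5 TPM from means under 1 TPM.

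The falls were smaller. RGS4, which quenches G-protein signalling, went from 75.8, 74.3 and 68.8 TPM to 1.97, 4.04 and 8.78 TPM (−3.81 ± 0.41, SE, log2 scale, limma adjusted p = 2.31e-05). CORO1A, an actin regulator, was −3.07, TMT1B −2.85, TMEM244 −2.85, PLEKHG4B −2.78, CCDC178 −2.64 and FGD3 −2.54. ST8SIA5, a sialyltransferase that builds gangliosides, went from 166, 170.2 and 136 TPM to 18.4, 25.8 and 41.7 TPM. In RGS4 and ST8SIA5 D28WO replicate 3 was again the library nearest to Untreated.

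In the comparison with D28, which uses the same D28WO libraries, few interferon genes passed the limits. Compared with D28, 739 genes were higher in D28WO (3.30%) and 504 lower (2.25%) by the same limits. Rises were 59.5% of these calls with TPM as deposited and 45.6% after quantile normalization, and the median of all genes was 0.06. None of the receptor and JAK-STAT, class I, class II, immunoproteasome or guanylate-binding genes passed, and their medians were 0.12, 0.10, −0.17, 0.06 and −0.05. A difference that does not pass is no proof of equal levels: for STAT2 D28WO was 0.33 above D28 (limma adjusted p = 0.00854), inside the limit of size.

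Of 40 antiviral genes 3 were lower than in D28 and none higher, and by adjusted p alone 8 were lower and 2 higher, where 8.41% of all genes were lower and 10.4% higher. OAS1 was at 62.6, 57.5 and 57.5 TPM in D28 and at 17.3, 15.1 and 21.2 TPM in D28WO (−1.69, limma adjusted p = 0.000232). OAS3 was −1.05 and CMPK2, a mitochondrial nucleotide kinase, −1.34. Outside the list, LGALS9 went from 25.3, 23.7 and 17.4 TPM in D28 to 4.52, 6.52 and 3.42 TPM in D28WO, and TNFSF10, which encodes the death ligand TRAIL, from 21.001, 22.2 and 26.4 TPM to 9.25, 4.44 and 9.56 TPM. Each of these lay between Untreated and D28.

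Some inflammatory genes were higher in D28WO than in D28. Of the 9 neutrophil and monocyte chemokines 5 passed (CXCL1, CXCL5, CCL2, CCL7 and CCL20) and the median was 1.03. Of 17 cytokines 4 were higher and 1 lower, of 20 NF-kB genes 2 were higher, and of 15 complement genes 2, with medians of 0.30, 0.45 and 0.06. CXCL5 was at 10.4, 13.1 and 9.04 TPM in D28 and at 37.6, 37.6 and 34.6 TPM in D28WO (1.68, limma adjusted p = 0.000207). IL1A was at 25.3, 21.5 and 23.9 TPM in D28 against 106, 113 and 91.5 TPM in D28WO (2.09, limma adjusted p = 5.22e-05), and IL1B, IL6 and CSF2 were the other 3 cytokines that were higher. CCL5 was 1.51 and TNFAIP6, an inflammation-induced matrix protein, 1.54 higher. By the naming rule LCN2, an iron-withholding acute-phase protein, was among the largest rises against D28, from 1.28, 0.696 and 0 TPM to 18.8, 19.98 and 22.4 TPM.

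The ATF4 and replication genes also set D28WO apart from D28. Of 24 ATF4 genes 6 were higher (CHAC1, TRIB3, ASNS, SLC7A11, GDF15 and FGF21), with a median of 0.72, and 20 were higher by adjusted p alone. Of the licensing genes 4 were lower (ORC1, CDC6, MCM10 and GINS2), with a median of −0.85, and so were 6 of the E2F and cyclin genes (E2F2, E2F8, CCND3, CCNE2, CDC25A and SKP2). CCNE2 was at 54.8, 49.6 and 43.4 TPM in D28, against 6.85, 10.4 and 21.9 TPM in D28WO. PFKFB4 and LDHA were the 2 glycolysis genes that passed, at −1.02 and −1.01. TSPAN15, a membrane tetraspanin, was at 23.5, 29.9 and 26.3 TPM in D28 and at 2.05, 2.94 and 2.66 TPM in D28WO, slightly under Untreated at 3.08, 4.58 and 5.58 TPM.

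Against D14, the day on which the cytokine was removed and for which 2 libraries could be used, 1495 genes were higher in D28WO (6.68%) and 733 lower (3.28%). Rises were 67.1% of these calls with TPM as deposited and 50.3% after quantile normalization, and the median of all genes was 0.09. The interferon lists had medians against D14 of 3.16 for guanylate-binding proteins, 1.02 for class I, 1.40 for antiviral genes and 0.90 for class II, beside 3.01, 0.91, 1.53 and 1.03 against Untreated. CIITA was at 49.7 and 50.9 TPM in D14, within or next to the Untreated range, and BST2 at 8.09 and 7.32 TPM, somewhat above it. The ATF4 median was 0.96 and the licensing median −0.98. These comparisons share the D28WO libraries, so their values stand side by side and are not independent of each other.

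**Figure D4:**
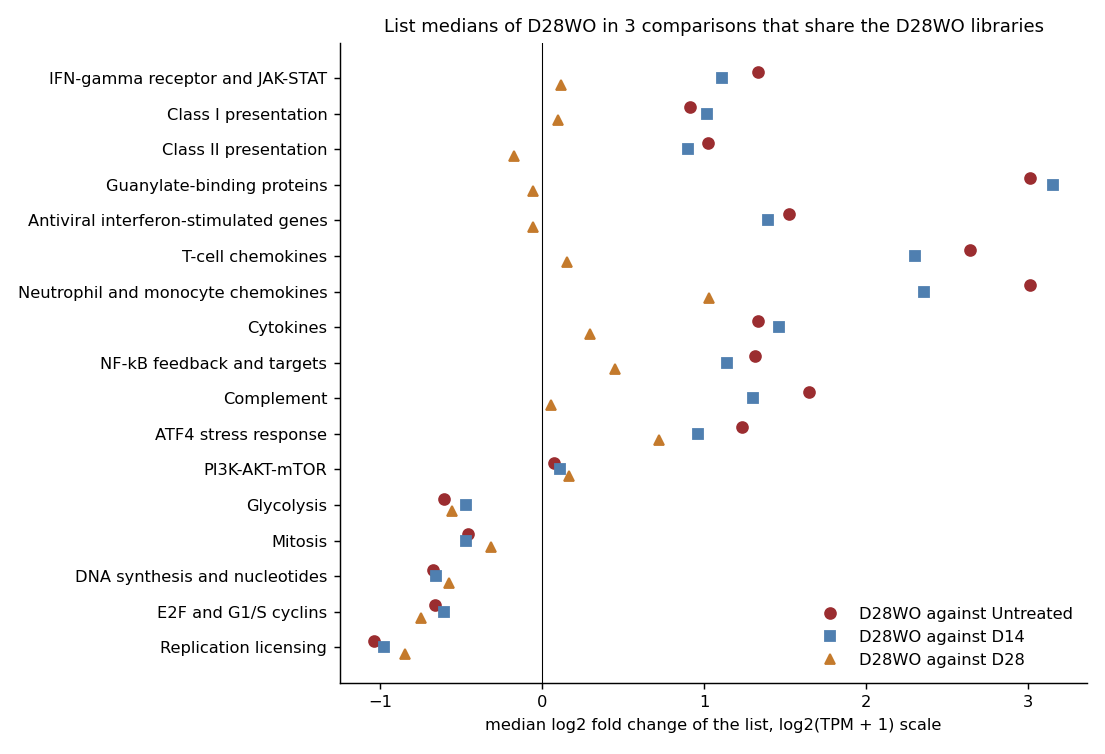
Median log2 fold change of 17 gene lists in D28WO against Untreated (circles), D14 (squares) and D28 (triangles), on the log2(TPM + 1) scale. Triangles for the interferon lists lie near 0, while those for neutrophil and monocyte chemokines (1.03), ATF4 genes (0.72) and replication licensing (−0.85) do not.

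The shift toward rises depended on the level of a gene. Of genes with a mean of 5 to 20 TPM 24.8% rose and 3.63% fell, against 2.76% and 1.32% of genes over 100 TPM, and the median difference went from 0.51 to −0.20 between these bins. After quantile normalization the medians of the same bins were 0.01 and −0.07. Of 5739 long non-coding RNAs 19.3% rose, and of 14491 protein-coding genes 11.1%. After quantile normalization these shares were 7.2% and 5.56%, and the difference between the classes was not tested. The abundant genes for ribosomes, respiration and glycolysis fall in the bin whose median was below 0, and the part of this shift in their values was not tested.

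**Figure D5:**
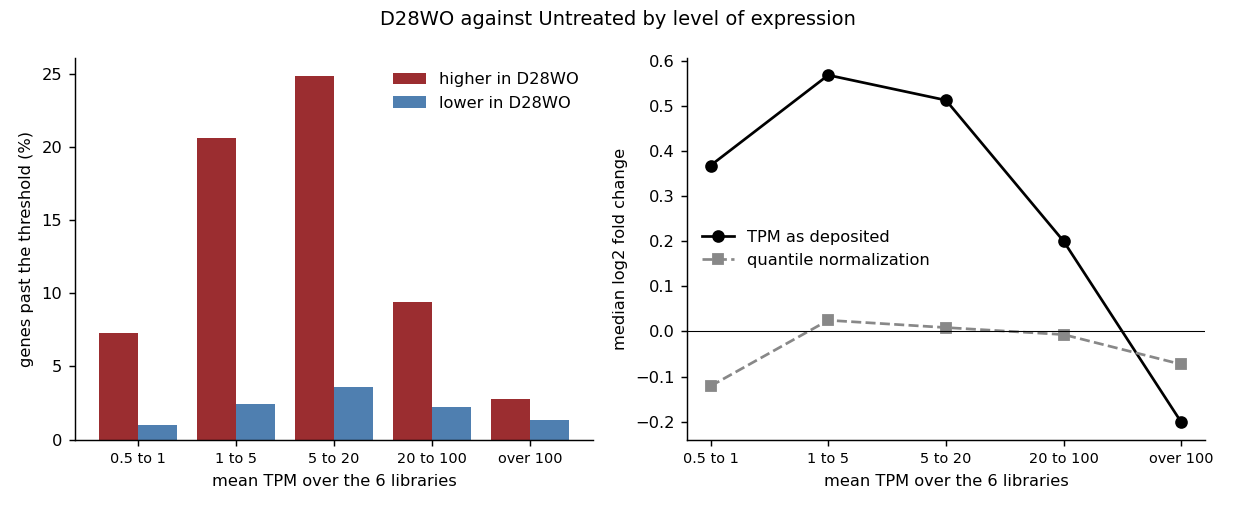
D28WO against Untreated by mean TPM over the 6 libraries: percent of genes past the threshold in each direction (left, bars from 0) and median log2 fold change (right) with TPM as deposited and after quantile normalization. Rises peak at 5 to 20 TPM, and the median falls from 0.51 in that bin to −0.20 above 100 TPM.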

How the data were processed

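RNA of U87-MG cultures was sequenced from TruSeq libraries. The authors, per the labels and methods, trimmed reads (Trim Galore), aligned them to GRCh38 (STAR), counted them per gene (featureCounts) and deposited TPM values. How TPM were computed and the use of strand are not given in the sources used here. A note of the study calls the matrices CPM. Values above 0 were as small as 1.62e-09 in Untreated and 9.97e-10 in D28WO, and 92.5 to 93.6% of those in a library were distinct, which counts of whole reads divided by a library total would not give, but correction for length was not tested. TPM keep no depth, so the depth per library is unknown and no interval from counts is given.

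Libraries were grouped by their labels. Of the U87 columns, 13 were used, and 2 that share 1 name were used in no step. Genes with a mean of 0.5 TPM or more over the D28WO and Untreated libraries were tested on log2(TPM + 1), which understates changes of low genes, with limma 3.58.1 (R 4.3.3, eBayes with trend) over all 5 U87 groups, which share 1 estimate of the spread. A call needed a Benjamini-Hochberg adjusted p under 0.05 and a log2 fold change over 1, the study's limits. Summaries used Python 3.11.15 (pandas 2.3.3, numpy 2.4.6, scipy 1.17.1), and coordinates of genes come from GENCODE 44. The fit was tested on simulated data for D28WO against Untreated over all 22376 genes: of 200 genes given a log2 change of 1.5, it called 86.5%, and it made 6 false calls. The 200 genes were drawn from those with a mean above 1.5 on the log2(TPM + 1) scale and changed equally often in each direction. The simulation had independent normal spread and no general shift, so it does not describe lower genes or a shift like the one seen here.

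The text names list members and the largest changes: 15 per direction against Untreated and 6 per direction against D28, among called genes whose groups did not overlap and whose higher mean was 5 TPM or above, leaving out clone names and pseudogenes. From these, a few examples are printed, and some genes are not reported here. The genes and lists were chosen with earlier results of these data known. Alternatives were another pseudocount, filter, normalization, variance model, set of samples and criterion, a replicate block and each library left out.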

Additional observations from a re-analysis of the deposited data

How the results depend on the processing

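TPM without counts give no depth, and 3 libraries per group, or 2 for D14, limit the precision. Scaling moved the split between rises and falls. Against Untreated, 1353 genes were higher and 1295 lower after quantile normalization, and 871 were lower after median-ratio size factors. With adjusted p as the only criterion 6701 were higher and 3101 lower against Untreated, 2319 and 1881 against D28, and 3358 and 2608 against D14, by construction more than with the limit on size.

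With 1 library left out, the genes higher against Untreated numbered 2510 to 3197 and those lower 392 to 593. Against D28 these ranges were 538 to 707 and 364 to 573, and against D14 1072 to 1393 and 528 to 803.

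The median of the feedback regulators turned to −0.069 after quantile normalization and −0.152 after median-ratio size factors, and that of the PI3K-AKT-mTOR list to −0.152 after median-ratio size factors. Those of the endoplasmic reticulum chaperones and the mesenchymal list, near 0 as deposited, were −0.20 and −0.22 after median-ratio size factors. The cause was not tested.

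Of 149 called genes among those named in the text, 110 kept their call under every alternative run. After quantile normalization 24 lost it, among them FTH1, PDCD1LG2, CD59, SLC2A1, MMP1, MCM2, MCM4, MCM5, RRM1 and RRM2. After median-ratio size factors 12 lost it, among them KYNU, CASP4, GSDMD, NFKB2 and PIK3CD. Without D28WO replicate 1, 16 lost it, most of them replication genes close to the limit. Pseudocount 0.1, filters on all U87 columns or at 1 TPM, and eBayes without a trend ended no call of these genes, no filter ended that of FABP7, and a fit of the compared groups alone ended 3.

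Same-numbered libraries of Untreated and D28WO did not deviate together (correlations of −0.0055, −0.0103 and −0.0135), so between these groups numbers were taken as names only. The study's methods split the D14 cultures into continued and withdrawn arms. Whether same-numbered D14, D28 and D28WO libraries come from the same cultures was not tested. With a replicate block 3038 genes were higher and 495 lower against Untreated, 714 and 488 against D28, and 1324 and 713 against D14, and no named gene lost its call.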
